A study of Homo sapiens with 3 samples.

Results

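The non-induced cells of a Cdx2 clone were set against the non-induced cells of a Cdx1 clone, gene by gene, to ask how far the 2 cell clones differed before either homeobox gene was switched on. Both clones were made from DLD1 (CCL-221), a human colorectal adenocarcinoma line that carried the TetOff regulator. Each was selected with hygromycin, was grown from a single cell and carried FLAG-tagged mouse Cdx2 or Cdx1 under a doxycycline-repressed promoter, so a clone stands for 1 founder cell and not for every cell that received the same gene. Doxycycline (DOX) at 0.5 µg/mL keeps the transgene off, and its withdrawal switches it on. The members were the Cy5 channel of 3 of 3 TORAY 3D-Gene 2-colour arrays, 1 array of the Cdx2 clone (24 h) and 2 arrays of the Cdx1 clone (12 and 24 h), and 15770 genes were above the blank spots in Cy5 on all 3. Nothing states that cultures were replicated, and clone, array and hybridisation cannot be told apart.

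The titles, the source names and the study's figure legend place the non-induced cells in Cy5, but the cell line characteristics given per channel say the reverse, so "non-induced" is the likely and not the settled state of these cells. If those characteristics were right, Cy5 would hold induced cells of the same clones. Which of the 2 dyes holds the non-induced cells thus rests on that assignment, and for some genes the difference between clones has another sign in Cy3, so the Cy3 difference is given beside the Cy5 difference for many of the genes. Cy3 was read on the same spots of the same arrays and is no independent replicate.

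CDX1 and CDX2 are homeodomain transcription factors of the intestinal epithelium. They are known to promote the enterocyte and goblet cell programmes, and CDH17, a cadherin of intestinal cells, is a classical target. DLD1 cells carry a truncated APC protein, so their Wnt pathway, which maintains crypt stem cells in the healthy gut, is constantly active.

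Levels are normalized log2 Cy5 values (background corrected with an offset of 50, quantile normalized), and a difference is the value on the Cdx2 array minus the mean of both Cdx1 arrays. Of 24460 gene probes, 92.1% were above the blank spots in Cy5 on the Cdx2 array, against 90.2% and 90.7% on the Cdx1 arrays. Of 10 colon epithelium markers on the arrays, 10 were above the blank spots on each array. Of 17 markers of fibroblasts, immune cells and endothelium, 13 were above the blank spots on the Cdx2 array, against 12 and 14 on the Cdx1 arrays, with a median Cy5 of 18.6 on the Cdx2 array against 23.8 and 20.5 on the Cdx1 arrays. These medians lay close to the thresholds set by the blank spots, which were 11.5 on the Cdx2 array and 14.5 and 13.6 on the Cdx1 arrays. With 3 arrays in all, precision is limited throughout.

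Most genes had nearly the same level in both clones. Across genes, the Cdx2 array correlated with the Cdx1 arrays at r = 0.986 (12 h) and 0.988 (24 h), and the Cdx1 arrays with each other at r = 0.993, where all arrays share the probes. The SD over genes was 0.257 for the Cdx2 minus the Cdx1 array at 24 h, and 0.189 for 24 h minus 12 h within the Cdx1 clone. By limma, which took its spread from the gap between the Cdx1 arrays (1 residual degree of freedom), 0 genes passed an adjusted p of 0.05 as higher (0.0%) and 0 as lower (0.0%) in the Cdx2 clone. The smallest adjusted p was 0.364, while 1905 genes (12.1%) had an unadjusted p under 0.05. Other settings called between 0 and 157 genes as higher and between 0 and 499 as lower. With 1 array of the Cdx2 clone, the genes below are therefore a description by size of difference, with no test passed.

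By that rule 44 genes (0.279%) were at least 2-fold higher and 56 (0.355%) at least 2-fold lower in the Cdx2 clone, or 36 and 79 with median centring in place of quantile normalization. Of these, 42 and 55 lay outside the range of the Cdx1 arrays by more than the gap between those arrays (0.266% and 0.349% of genes), as did 6499 genes (41.2%) whatever their fold. Within the Cdx1 clone, 12 genes (0.0761%) were at least 2-fold higher and 6 (0.038%) at least 2-fold lower at 24 h than at 12 h. In Cy3, 91 of 15078 genes (0.604%) were at least 2-fold higher and 99 (0.657%) at least 2-fold lower in the Cdx2 clone. Of the 44 genes higher in Cy5, 44 were higher in Cy3, 35 of them 2-fold or more. Of the 56 lower genes, 55 were lower in Cy3, 44 of them 2-fold or more, and the exception was LY6G6D (-1.16 in Cy5 and 0.03 in Cy3).

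**Figure D1:**
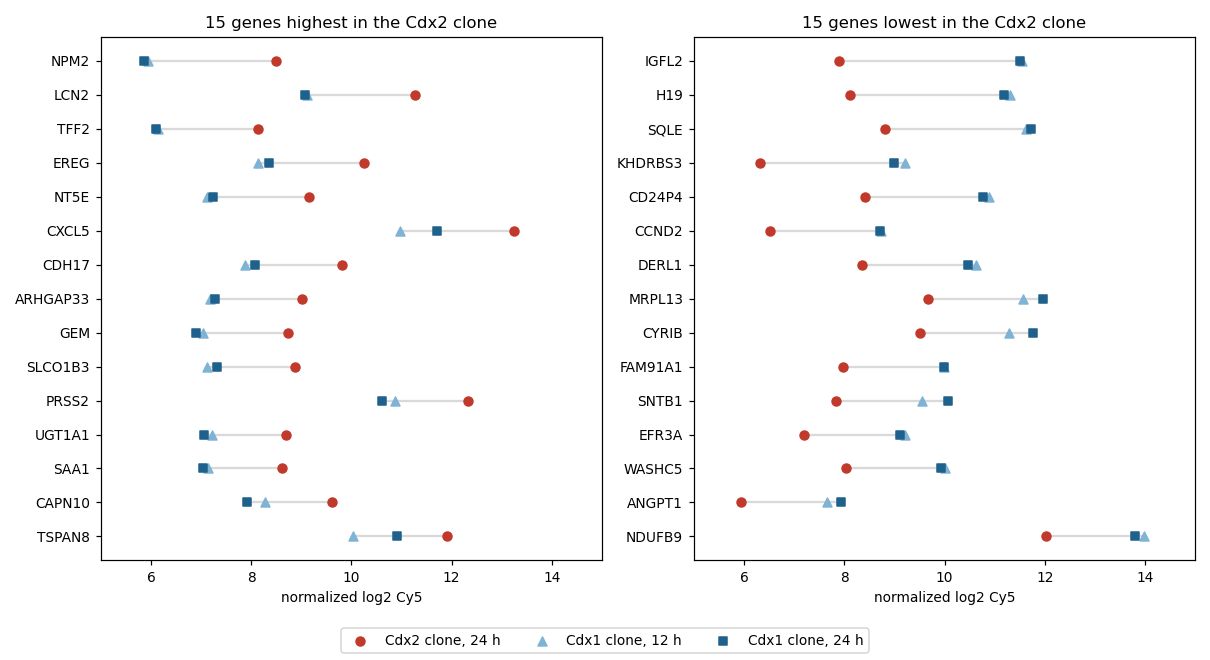
Normalized log2 Cy5 on each of the 3 arrays (x axis) for the 15 genes with the highest (left) and the 15 with the lowest (right) difference, among genes outside the range of the Cdx1 arrays by more than their gap. Each point is 1 array and the grey line joins the lowest and highest of the 3. NPM2 leads on the left at 8.50 on the Cdx2 array and IGFL2 on the right at 7.90, where the Cdx1 arrays read 11.54 and 11.51.

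Trefoil peptides and the intestinal cadherin CDH17 were among the genes that were higher in the Cdx2 clone. TFF2, a trefoil peptide that protects the mucus layer of the stomach and duodenum, read 8.15 on the Cdx2 array, against 6.15 on the 12 h and 6.11 on the 24 h array of the Cdx1 clone, a difference of 2.02 (4.05-fold). CDH17 read 9.82 on the Cdx2 array, against 7.88 and 8.08 on the Cdx1 arrays, a difference of 1.84 (3.58-fold). In both genes the Cdx1 arrays lay close together and far below the Cdx2 array. The differences in Cy3 were 2.13 for TFF2 and 1.97 for CDH17. In bulk RNA of this kind, fewer cells with a transcript and less of it per cell cannot be told apart.

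Of 24 measured goblet, Paneth and enteroendocrine genes, 4 were at least 2-fold higher (all genes, 0.279%) and 0 lower (all genes, 0.355%). The median difference of this list was 0.05, against 0.0041 over all genes. The other members past 2-fold were MUC13, a transmembrane mucin (1.13), TFF3, the trefoil peptide of goblet cells (1.13), and TFF1, that of the gastric surface (0.66 in Cy3). TFF1 read 9.17 on the Cdx2 array, against 8.20 and 8.15 on the Cdx1 arrays. TFF3 read 10.58 on the Cdx2 array, against 9.50 and 9.41 on the Cdx1 arrays. TFF1, TFF2 and TFF3 lie side by side on chromosome 21. Thus 4 genes made up the list's upper end, while every other member lay between -0.45 (REG1A) and 0.16 (REG4).

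Enterocyte genes followed with CDH17 at their head. Of 35 measured enterocyte and brush border genes, 1 was at least 2-fold higher (all genes, 0.279%) and 0 lower (all genes, 0.355%). At least 1.5-fold higher were 4 (all genes, 1.57%) and lower were 0 (all genes, 1.76%), and the median was 0.04. LGALS4, a galectin of the brush border, was higher by 0.92, PLS1, which bundles actin in microvilli, by 0.87 and DPP4, a brush border peptidase, by 0.87 (0.86, 0.97 and 1.18 in Cy3). DPP4 read 7.00 on the Cdx2 array, against 6.14 and 6.13 on the Cdx1 arrays. The lowest member of the list was the keratin KRT20, at -0.53 in Cy5 and -0.29 in Cy3. Against the 24 h Cdx1 array alone, KRT20 was at -0.30 in Cy5. No member of this list or of the goblet list passed the limma test.

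Of 22 measured CDX and intestinal transcription factors, 0 were 1.5-fold different in either direction (all genes, 1.57% higher and 1.76% lower). Their differences ran from -0.44 to 0.47, with a median of 0.04. The upper end was CDX2 itself, which read 8.84 on the Cdx2 array, against 8.42 and 8.31 on the Cdx1 arrays, a difference of 0.47 in Cy5 and 1.41 in Cy3. CDX1 read 6.12 on the Cdx2 array, against 6.03 and 6.02 on the Cdx1 arrays, a difference of 0.09. The transgenes are of mouse origin, so the human probes may not read them, and leak of a transgene was not tested.

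**Figure D2:**
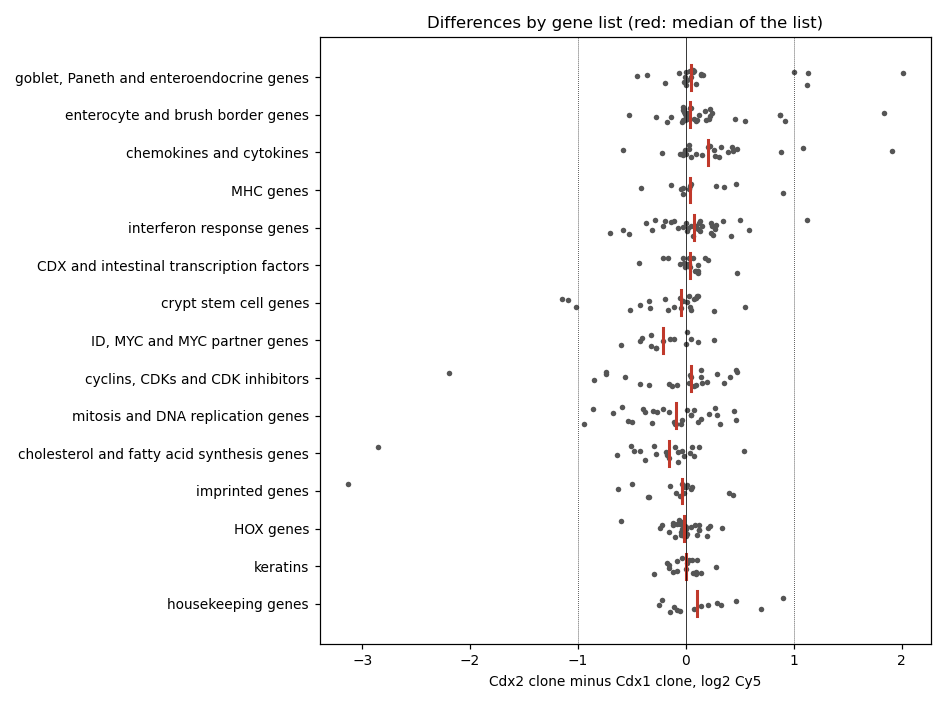
Difference between clones in log2 Cy5 (x axis, Cdx2 clone minus Cdx1 clone) for the measured members of 15 gene lists. Each grey point is 1 gene, its height within a row is arbitrary, red bars are list medians and dotted lines mark 2-fold. The medians lie near 0 for most lists, with 0.21 for chemokines and cytokines and -0.21 for ID, MYC and MYC partner genes, while single members such as H19 (-3.14) and TFF2 (2.02) lie far out.

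LCN2, EREG, SAA1 and CXCL5 were also higher in the Cdx2 clone. LCN2, a siderophore-binding protein that epithelia secrete in inflammation, read 11.27 on the Cdx2 array, against 9.11 and 9.07 on the Cdx1 arrays, a difference of 2.18 in Cy5 (4.55-fold) and 2.25 in Cy3. EREG, the EGF receptor ligand epiregulin, read 10.25 on the Cdx2 array, against 8.13 and 8.36 on the Cdx1 arrays, a difference of 2.01 in Cy5 (4.03-fold) and 1.66 in Cy3. SAA1, an acute phase apolipoprotein, was higher by 1.53 in Cy5 and 1.57 in Cy3. SAA1 has a near-identical paralog, SAA2, so its probe may not tell them apart. The probe annotated to SAA2 was higher by 1.23 in Cy5 and 1.24 in Cy3.

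CXCL5, a neutrophil chemokine, was among the brightest of these genes. It read 13.24 on the Cdx2 array, against 10.96 and 11.71 on the Cdx1 arrays, a difference of 1.91 in Cy5 and 1.36 in Cy3. The Cdx1 arrays themselves differed by 0.75 here, so the gap between times in 1 clone was a sizeable part of the gap between clones. Of 27 measured chemokines and cytokines, 2 (CXCL5 and CXCL3) were at least 2-fold higher (all genes, 0.279%). By that size 0 were lower (all genes, 0.355%), and the median was 0.21 in Cy5 and 0.17 in Cy3. The lowest of them was the chemokine CCL5 (-0.58). CXCL3 read 8.30 on the Cdx2 array, against 6.85 and 7.58 on the Cdx1 arrays, and its distance to the nearer Cdx1 array was smaller than the gap between those. CCL20, a chemokine of the gut lining, had 8.15 on the Cdx2 array, against 6.62 and 7.91 on the Cdx1 arrays, and its difference of 0.88 in Cy5 stood beside 2.73 in Cy3. Against the 24 h Cdx1 array alone, the differences in Cy5 were 1.53 for CXCL5, 0.72 for CXCL3 and 0.24 for CCL20. The size of all 3 thus depended on the Cdx1 array used, but only CXCL5 lay outside those arrays by more than their gap.

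In genomic order, the chemokine cluster of chromosome 4 made the highest run of neighbours. Among runs of 15 measured genes in RefSeq order, that of AFP to RCHY1 had the highest median, 0.35 in Cy5 and 0.22 in Cy3, where the middle 95% of 15344 runs lay between -0.11 and 0.09. Against the 24 h Cdx1 array alone its median was 0.09, with 11 of 15 genes above 0, and against the 12 h array alone it was 0.50. Within the Cdx1 clone the run's median of 24 h minus 12 h was 0.17. Against the mean of both Cdx1 arrays 14 of its 15 genes were above 0, and 4 of them were at least 2-fold higher (EREG, CXCL5, CXCL3 and PF4). BTC, another EGF receptor ligand of this run, was higher by 0.53. Next by median against both Cdx1 arrays came runs on chromosome 6 (SERINC1 to ECHDC1, median 0.24), chromosome 4 (CXCL10 to ANXA3, 0.24), chromosome 1 (SNRNP40 to TXLNA, 0.17) and chromosome 7 (ZNF3 to PILRA, 0.17). The leading genes of these were PKIB (1.30), SMPDL3A (0.71) and SERINC1 (0.62), then ANXA3 (1.14), CXCL10 (0.42) and STBD1 (0.34), then SERINC2 (0.91), SNRNP40 (0.32) and HCRTR1 (0.24), and last MCM7 (0.44), PILRA (0.38) and PMS2P1 (0.37). Against the 24 h Cdx1 array alone, the medians of these 4 runs were 0.10, 0.06, 0.13 and 0.09, and SERINC1 and CXCL10 were higher by 0.11 and 0.06, where the Cdx1 arrays differed by 1.02 and 0.73. The SNRNP40 run had a median of 0.03 against the 12 h array alone. The height of each of these 5 runs thus depended on the Cdx1 array used.

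The highest difference of all belonged to NPM2, an oocyte histone chaperone. It read 8.50 on the Cdx2 array, against 5.95 and 5.86 on the Cdx1 arrays, a difference of 2.59 in Cy5 (6.03-fold) and 3.67 in Cy3. In raw Cy5 this was 284.7 on the Cdx2 array, against 24.0 and 18.2 on the Cdx1 arrays, which were not far above the blank spots, and the offset reduces differences of such dim probes. With an offset of 0 the difference was 4.99 for NPM2 and 3.55 for TFF2, and with an offset of 200 it was 1.29 for NPM2 and 0.98 for TFF2. NT5E (CD73, an ectonucleotidase that forms adenosine) was higher by 1.98, ARHGAP33 by 1.79, and GEM, a small GTP-binding protein, by 1.76. SLCO1B3, an organic anion transporter, was higher by 1.65, PRSS2, a trypsinogen, by 1.59, UGT1A1, which conjugates bilirubin, by 1.55, CAPN10, a calpain protease, by 1.52 and TSPAN8, a tetraspanin of gut epithelium, by 1.43. SLCO1B3, PRSS2 and UGT1A1 belong to families whose members share sequence, so their probes may read relatives as well. TSPAN8 read 11.90 on the Cdx2 array, against 10.04 and 10.90 on the Cdx1 arrays, which makes it the least even of the 15 between the Cdx1 arrays.

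The promoter of LCN2, second of the higher genes, is shown as an example among those higher genes whose promoter held the motif below. Its match is therefore no result about the higher genes as a set. LCN2 is bright on all arrays and was higher in both dyes, as were all 44 of the higher genes. It spans 250 bases before to 50 after the start (RefSeq, GRCh38.p14, chr9:128149203-128149502, plus strand), and capitals mark its match to TTTATNG, a CDX-type site searched on both strands.
LCN2: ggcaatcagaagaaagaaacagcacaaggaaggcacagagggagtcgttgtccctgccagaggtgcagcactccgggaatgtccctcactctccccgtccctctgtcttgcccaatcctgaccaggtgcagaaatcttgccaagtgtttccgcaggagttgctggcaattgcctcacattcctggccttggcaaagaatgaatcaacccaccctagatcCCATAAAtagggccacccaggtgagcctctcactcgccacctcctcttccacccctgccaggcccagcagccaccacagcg
On the other strand these letters read TTTATGG. The stretch begins at -31 from the start and shares ATAAA with the TATA box motif TATAAA, but does not hold that motif whole. Whether it serves as a CDX site or as a core promoter element was not tested. The motif was in 10.1% of 27305 promoters and in 7.29% of the 12654 promoters matched to genes tested. Only 30 of the 44 higher genes had a promoter sequence here, fewer than 80%, so a share among them would be void.

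The MHC and interferon lists held genes on both sides of 0. B2M, the light chain of MHC class I, read 12.56 on the Cdx2 array, against 11.65 and 11.66 on the Cdx1 arrays, a difference of 0.90 in Cy5 and 0.85 in Cy3. It was the 1 of 12 measured MHC genes past 1.5-fold (all genes, 1.57% higher and 1.76% lower), and the list's median was 0.04. Of 34 measured interferon response genes, 1 was at least 2-fold higher (all genes, 0.279%), USP18, a protease that removes ISG15 (1.12). At least 1.5-fold higher were 2 (all genes, 1.57%), USP18 and IFI35 (0.59). At least 1.5-fold lower was 1 (all genes, 1.76%), HERC5, an ISG15 ligase (-0.70). HERC5 read 9.15 on the Cdx2 array, against 9.47 and 10.23 on the Cdx1 arrays, so the Cdx1 arrays differed by more than the Cdx2 array from the nearer of them. The interferon list's median was 0.08 in Cy5 and 0.25 in Cy3.

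The genes that were lower in the Cdx2 clone were led by IGFL2 and H19, which are bright in the Cdx1 clone. IGFL2, a secreted protein of the IGF-like family, read 7.90 on the Cdx2 array, against 11.54 and 11.51 on the Cdx1 arrays. This difference of -3.63 (12.4-fold lower, SE 0.05 by limma, adjusted p = 0.364) was -3.67 in Cy3 and -3.47 with the other IGFL2 probe in Cy5. H19, an imprinted long noncoding RNA, read 8.11 on the Cdx2 array, against 11.30 and 11.18 on the Cdx1 arrays, a difference of -3.14 in Cy5 (8.79-fold lower) and -3.20 in Cy3.

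H19 was the 1 of 17 measured imprinted genes past 2-fold (all genes, 0.279% higher and 0.355% lower), and the median of the list was -0.04. Its neighbour IGF2, a fetal growth factor imprinted on the other parental copy, was lower by 0.63 with its brightest probe, while its other probe gave 0.11. CCND2, the D2 cyclin, read 6.53 on the Cdx2 array, against 8.72 and 8.72 on the Cdx1 arrays, a difference of -2.19 in Cy5 and -1.66 in Cy3. A probe annotated to CD24P4, a processed copy of the CD24 surface antigen gene that may share sequence with it, had a difference of -2.41 in Cy5 and -1.59 in Cy3. AKR1C3, which reduces steroid and prostaglandin ketones, was the lowest drug metabolism gene at -1.70 (-1.98 in Cy3), and it has close AKR1C relatives. In each of these genes the Cdx2 array lay below both Cdx1 arrays by more than their gap.

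Many of the genes that were 2-fold lower lay in one stretch of chromosome 8. Of the 55 such genes that could be placed, 25 lay on chromosome 8 (4.64% of its measured genes), against 30 of 15127 genes on other chromosomes (0.198%). The lowest runs of 15 were C8orf76 to NDUFB9 (median -1.48 in Cy5 and -1.70 in Cy3, 10 of 15 at least 2-fold lower) and ZNF572 to PHF20L1 (-1.17 and -1.18, 8 of 15). From MRPL13 to KHDRBS3, bounds that were chosen after the values were seen, 23 of 44 measured genes were at least 2-fold lower.

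Of the 44 genes of that stretch 39 were below 0, with a median of -1.18 in Cy5 and -1.49 in Cy3. The 15 measured genes on each side had a median of -0.03. SQLE, which makes squalene epoxide in cholesterol synthesis, read 8.82 on the Cdx2 array, against 11.63 and 11.72 on the Cdx1 arrays, a difference of -2.85 in Cy5 and -2.69 in Cy3. KHDRBS3, an RNA-binding protein of the STAR family, read 6.32 on the Cdx2 array, against 9.20 and 8.98 on the Cdx1 arrays, a difference of -2.77 (-4.05 with an offset of 0 and -1.60 with one of 200). NDUFB9, a subunit of respiratory complex I, was the brightest gene of the stretch, with 12.03 on the Cdx2 array, against 13.98 and 13.80 on the Cdx1 arrays.

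The other genes of the stretch among the 15 lowest were DERL1, which serves protein export from the endoplasmic reticulum (-2.19), the mitochondrial ribosomal protein MRPL13 (-2.09), the Rac1 binding protein CYRIB (-2.01), FAM91A1 (-2.01), the syntrophin SNTB1 (-1.98), EFR3A, which anchors a lipid kinase at the plasma membrane (-1.97), the WASH complex subunit WASHC5 (-1.93) and NDUFB9 (-1.86). ANGPT1, a ligand of the TIE2 receptor, lies on chromosome 8 outside this stretch and had a difference of -1.86, and its other probe gave -1.12. ZHX1, a zinc finger and homeobox repressor, was lower by 1.79. MYC, which lies inside the stretch, read 9.11 on the Cdx2 array, against 9.86 and 9.56 on the Cdx1 arrays, a difference of -0.60 in Cy5 and -0.00 in Cy3. Its other, dim probe gave -0.06.

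**Figure D3:**
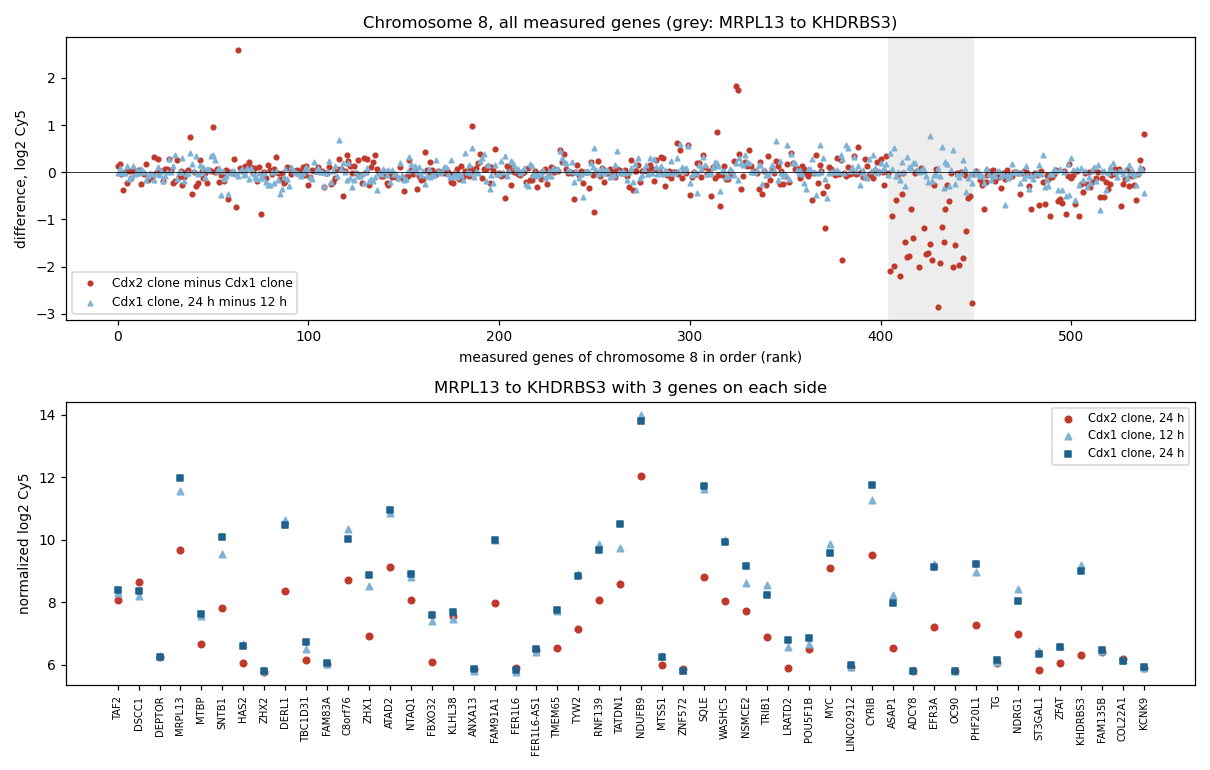
Top, difference in log2 Cy5 for every measured gene of chromosome 8 in order (x axis, rank and not distance), as Cdx2 clone minus Cdx1 clone (red) and as 24 h minus 12 h within the Cdx1 clone (blue), with the stretch from MRPL13 to KHDRBS3 in grey. Bottom, normalized log2 Cy5 on each array for the 44 genes of the stretch and 3 on each side, where NDUFB9 reads 12.03 on the Cdx2 array, below both Cdx1 arrays at 13.98 and 13.80.

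Shallower runs of lower genes lay on chromosomes 20 and 19. The run from BCAS1 to RBM38 on chromosome 20 had a median of -0.40 in Cy5 and -0.34 in Cy3, led by FAM210B (-1.11), the transcription factor TFAP2C (-0.96 in Cy5 and -0.49 in Cy3) and the mitotic kinase AURKA (-0.86). Against the 24 h Cdx1 array alone that median was -0.21. On chromosome 19, the run from MYADM to RPS9 had a median of -0.38 in Cy5 and -0.06 in Cy3, led by TSEN34 (-0.91 in Cy5 and -0.66 in Cy3), PRPF31 (-0.56 and -0.51) and TFPT (-0.54 and -0.41). The run from FAAP24 to PDCD2L on the same chromosome had a median of -0.34 in Cy5 and -0.44 in Cy3, led by LSM14A (-0.85), PDCD2L (-0.80) and LRP3 (-0.69).

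The genes ALCAM, CD44 and TNFRSF19 had lower values in the Cdx2 clone, whereas LGR5 had much the same. Of 23 measured crypt stem cell genes, 3 were at least 2-fold lower (all genes, 0.355%) and 0 higher (all genes, 0.279%), with a median of -0.04. ALCAM (CD166, an adhesion molecule) read 9.20 on the Cdx2 array, against 10.24 and 10.47 on the Cdx1 arrays, a difference of -1.15 in Cy5 and -0.79 in Cy3, and its other probe gave -0.94. CD44, the hyaluronan receptor used as a cancer stem cell marker, read 6.70 on the Cdx2 array, against 7.91 and 7.68 on the Cdx1 arrays. Its difference was -1.10 in Cy5 and -0.79 in Cy3. With an offset of 0 the Cy5 difference of CD44 was -1.675, and with one of 200 it was -0.55. TNFRSF19 (TROY), a receptor of crypt base cells, had a difference of -1.02 in Cy5 and -0.85 in Cy3.

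LGR5, the R-spondin receptor that marks crypt base stem cells, had nearly the same value in both clones. It read 7.01 on the Cdx2 array, against 7.02 and 7.21 on the Cdx1 arrays, a difference of -0.11 ± 0.12 (SE) in Cy5 (limma adjusted p = 0.836) and -0.04 in Cy3, and the Cdx1 arrays differed by 0.19 from each other. In raw Cy5 the LGR5 probe read 78.4 on the Cdx2 array, against 104.1 and 104.2 on the Cdx1 arrays, and the offset shrinks differences of dim probes. On immunoblots, the study noted that LGR5 protein at baseline varied between its TetOff clones, which these RNA values do not measure. Of 34 measured Wnt pathway and feedback genes, 0 were 2-fold different (all genes, 0.279% higher and 0.355% lower). At least 1.5-fold lower was 1 (all genes, 1.76%), AXIN2, a feedback inhibitor of the pathway (-0.59 in Cy5 and -0.06 in Cy3). The median of that list was 0.0083.

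The ID and MYC list differed little between clones in Cy5. Of 15 measured members, 0 were 2-fold different and 1 (MYC) was at least 1.5-fold lower (all genes, 1.76%). The list's median was -0.21 in Cy5 but -0.01 in Cy3. ID1, a dominant inhibitor of bHLH factors, read 10.99 on the Cdx2 array, against 11.38 and 11.16 on the Cdx1 arrays in Cy5, a difference of -0.28. In Cy3 it read 10.04 on the Cdx2 array, against 9.44 and 9.19 on the Cdx1 arrays, a difference of 0.73. ID3, its relative, had -0.21 in Cy5 and 0.44 in Cy3, and ID2, another relative, 0.26 in Cy5 and 0.63 in Cy3. In Cy5 neither ID1 nor ID3 lay outside the Cdx1 arrays by more than their gap, since ID3 read 9.80 on the Cdx2 array, against 10.16 and 9.85 on the Cdx1 arrays.

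**Figure D4:**
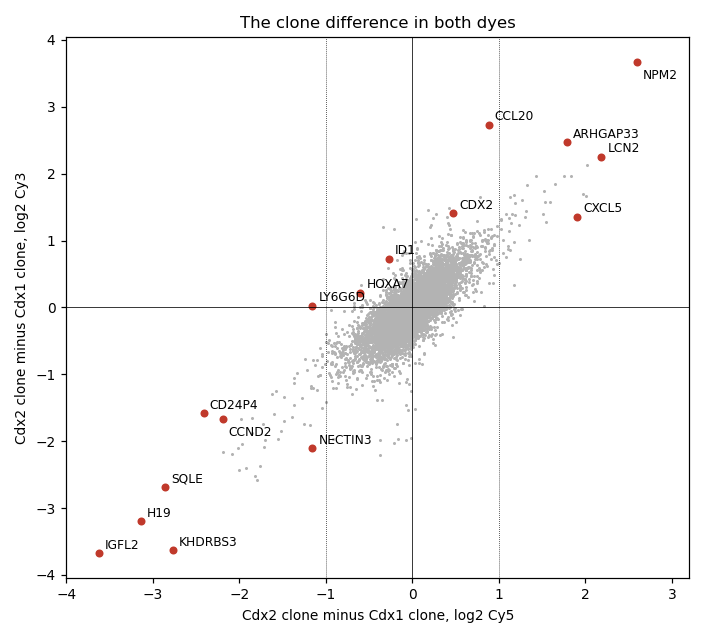
Difference between clones in log2 Cy5 (x axis) against the same difference in log2 Cy3 (y axis), both as Cdx2 clone minus Cdx1 clone, for 15078 genes measured in both dyes. Each grey point is 1 gene, red points are named genes and dotted lines mark 2-fold in Cy5. IGFL2 (-3.63 and -3.67) and NPM2 (2.59 and 3.67) lie at opposite ends, while ID1 (-0.28 and 0.73) and CDX2 (0.47 and 1.41) lie above the bulk of the points.

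Over all 15078 genes the clone difference in Cy5 and in Cy3 correlated at r = 0.798. These are genes on shared spots and arrays, and no p is given. CCL20 (0.88 in Cy5 and 2.73 in Cy3), NPM2 and CDX2 were the named genes whose differences were higher in Cy3 by the most together with ID1. KHDRBS3 (-2.77 in Cy5 and -3.63 in Cy3) had the more negative difference in Cy3.

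Genes of mitosis and the cell cycle had lower values in part, and CCND2 was the 1 among them past 2-fold. Of 30 measured mitosis and DNA replication genes, 0 were 2-fold different. At least 1.5-fold lower were 4 (all genes, 1.76%) and higher were 0 (all genes, 1.57%). The list's median was -0.09 in Cy5 and -0.24 in Cy3. KIF20A, a kinesin of cytokinesis, read 8.25 on the Cdx2 array, against 9.07 and 9.31 on the Cdx1 arrays, a difference of -0.94 in Cy5 and -0.55 in Cy3. AURKA and the spindle factor TPX2 followed with -0.86 and -0.67, and the checkpoint kinase BUB1 with -0.60. Among 24 measured cyclins, CDKs and CDK inhibitors, whose median was 0.05 in Cy5, 4 were at least 1.5-fold lower (all genes, 1.76%) and 0 higher, namely CCND2, CDK6, the partner kinase of D cyclins (-0.86), and the mitotic cyclins CCNB2 (-0.74) and CCNB1 (-0.74). BUB1 and CCNB2 did not lie outside the Cdx1 arrays by more than their gap.

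Metabolic lists held single genes that stood far from the rest. Of 21 measured cholesterol and fatty acid synthesis genes, 1 was 2-fold lower, SQLE of the chromosome 8 stretch, and 1 more at least 1.5-fold lower, FASN, the fatty acid synthase (-0.64 in Cy5 and -0.41 in Cy3), and the median was -0.16. Of 26 glycolysis and hypoxia genes, NDRG1, a hypoxia-induced gene of the same stretch (-1.25), and the glycolytic enzyme GPI (-0.61), which lies in the FAAP24 run, were at least 1.5-fold lower. Among 28 drug and xenobiotic metabolism genes, UGT1A1 (1.55) and ALDH3A1, an aldehyde dehydrogenase (0.61), were at least 1.5-fold higher. AKR1C3 (-1.70) and GSTM3, a glutathione transferase (-0.61), were at least 1.5-fold lower. Over all genes, 1.57% were at least 1.5-fold higher, 1.76% at least 1.5-fold lower and 0.355% at least 2-fold lower. Both of the lower genes that head the lipid and glycolysis lists thus lay in the chromosome 8 stretch.

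Among growth factors and receptors, EREG was the 1 of 37 measured members past 2-fold (all genes, 0.279% higher and 0.355% lower). KIT, a receptor tyrosine kinase (-0.68 in Cy5 and -0.02 in Cy3), and IGF2 were at least 1.5-fold lower (all genes, 1.76%). INHBB, an activin subunit, was higher by 0.72, the 1 of 35 BMP, TGF-beta and Notch genes past 1.5-fold (all genes, 1.57% higher and 1.76% lower). A single member is no result about its list. CHAC1, a stress-induced glutathione-degrading enzyme, was the 1 of 24 stress and amino acid response genes past 1.5-fold (0.72 in Cy5 and 0.10 in Cy3). It read 8.98 on the Cdx2 array, against 7.71 and 8.82 on the Cdx1 arrays. It was thus close to the Cdx1 array of the same time.

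Other lists held few or no genes past 1.5-fold. Keratins (18 measured), claudins and tight junction genes (21), cadherins, desmosome genes and EMT factors (29), integrins, laminins and collagens (32), mismatch repair and DNA damage genes (21), metallothioneins (9), cancer-testis genes (24) and RNA polymerase II, DSIF and PAF1 complex genes (29) had 0 such genes in either direction. Of 36 measured HOX genes, the positional homeobox factors, HOXA7 was the 1 past 1.5-fold (-0.60 in Cy5 and 0.22 in Cy3). Of 10 measured fibroblast, immune and endothelial markers, CD14, an endotoxin co-receptor of monocytes that read 6.32 on the Cdx2 array, against 7.41 and 7.01 on the Cdx1 arrays, was the 1 past 1.5-fold (-0.89). Of 14 housekeeping genes, B2M and TFRC, the transferrin receptor (0.70), were at least 1.5-fold higher (all genes, 1.57%), and the list's median was 0.11.

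Probes above the blank spots in 1 clone alone were mostly dim. Of 20236 probes with a gene name, 337 were above the blank spots on the Cdx2 array and on neither Cdx1 array. The highest bound among them was at least 1.22-fold (LY86), followed by AHNAK2, DCN, BTNL3 and HLTF. The Cdx2 array had the lowest threshold, 11.5 against 14.5 and 13.6 on the Cdx1 arrays. A probe such as that of IFNG thus counted with a raw Cy5 of 12.6, against 14.5 and 13.3. Another DCN probe was above the blank spots on all 3 arrays, with a difference of -0.01. The other way, 103 of the 20236 probes were above the blank spots on both Cdx1 arrays and not on the Cdx2 array. With unlike thresholds, 337 and 103 do not tell in which clone more genes were on. PTN, the heparin-binding growth factor pleiotrophin, had the highest bound. Its raw Cy5 was 10.0 on the Cdx2 array, not above the blank spots, against 168.1 and 214.8 on the Cdx1 arrays, so it was at least 4.14-fold lower in the Cdx2 clone. ODAM (at least 1.43-fold), PGCKA1 (1.37), ITM2A (1.29) and PROM1, which codes for the stem cell antigen CD133 (1.23), followed. Another ODAM probe was above the blank spots on all 3 arrays, with a difference of -1.05. A bound sets the normalized mean of the clone above the blank spots against the lowest signal above them in the other. PTN was the 1 gene whose bound passed 1.5-fold.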

How the data were processed

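RNA of DLD1-TetOff clones was amplified to amino allyl aRNA, coupled to Cy dyes and hybridised to TORAY 3D-Gene arrays. The deposited scanner output gives each spot's median intensity in Cy5 and in Cy3, from which the authors had subtracted nothing. Its scanner software and genome build are not given in the sources read here. The authors' table of processed values was not used.

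Flagged spots (1 and 6 probes on the Cdx1 arrays, 3 on the Cdx2 array) were left out. A probe was above the blank spots where it exceeded the trimmed mean of 2680 blanks (5% off each end) by 2 SD. Cy5 was corrected by normexp without local background (offset 50), taken to log2 and quantile normalized over probes above blanks on all 3 arrays in limma 3.58.1 under R 4.3.3. Cy3 was treated alike. A gene was its brightest probe. The offset shrinks differences of dim probes. Symbols of 20236 of 24460 probes came from the platform annotation, and 2899 were updated, 98 ambiguous and 1 unmatched in RefSeq (GRCh38.p14), which also ordered 15666 genes for runs of 15. Replicates of the Cdx1 clone differ in time, so p-values rest on the gap between its 12 h and 24 h arrays, which mixes time and array. The Cdx2 clone, with 1 array, was assumed to vary alike. limma compared the Cdx2 array with the mean of the Cdx1 arrays (two-sided, Benjamini-Hochberg, adjusted p of 0.05). A run on simulated data checked only the design and sign of the fit. It gave the Cdx2 array the same spread as the Cdx1 arrays, so it could not test that assumption.

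The members, gene lists and rules were chosen with earlier results of these data known. Named were the 15 highest and 15 lowest genes outside the Cdx1 range by more than its gap, the 5 highest bounds each way, members of 29 lists (with up to 6 of each, at least 1.5-fold different, besides the study's own CDX, LGR5, MYC and ID genes) and the 3 leading genes of the 5 highest and 5 lowest runs. LY6G6D, PF4, BTC, SAA2, IFNG and the markers were named beside these. Alternatives changed the background correction, offset, normalization, filter, probe rule, variance model, dye, fold threshold and arrays.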

Additional observations from a re-analysis of the deposited data

Results flagged for a closer look

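The difference between clones ran in opposite directions in the 2 dyes for 3 named genes, with the Cdx2 array outside the range of both Cdx1 arrays each time, and this difference between dyes was not tested. HOXA7 had -0.60 in Cy5 and 0.22 in Cy3. ID1 had -0.28 in Cy5 and 0.73 in Cy3. ID3 had -0.21 in Cy5 and 0.44 in Cy3. In Cy5 neither ID1 nor ID3 lay outside the Cdx1 arrays by more than the gap between those. Of the 15078 genes measured in both dyes, 1183 showed such a turn, 14 of them with at least 1.5-fold in one of the dyes.

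Probes without a gene name were not part of the comparison by gene. Of 3617 such probes above the blank spots, 9 (0.249%) were at least 2-fold different between clones, 5 higher and 4 lower in the Cdx2 clone, and 9 of these 9 had the same sign in Cy3. Among named genes that share was 0.634%.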

How the results depend on the processing

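With 1 array of the Cdx2 clone and 1 residual degree of freedom, the count of genes that limma called was set by the processing. Against 0 higher and 0 lower genes, raw Cy5 gave 2 and 5, an offset of 0 gave 47 and 89, median centring 157 and 499, probes at least 4 times the blank mean 6 and 12, and an intensity trend with a robust fit 77 and 76. The other settings tested called 0 and 0. Against 44 genes at least 2-fold higher and 56 lower, raw Cy5 gave 102 and 127, subtraction of the blank mean 138 and 172, an offset of 0 gave 148 and 220, an offset of 200 gave 19 and 25, Cy3 gave 92 and 100 (over 15231 genes above the blank spots in Cy3), and a 1.5-fold threshold 248 and 277. Median centring gave 36 and 79. Without the Cdx1 array at 12 h the counts were 51 and 59, and without that at 24 h 68 and 82. Outside chromosome 8, a choice made after the data were seen, 30 genes were 2-fold lower. The 44 and 56 genes kept their sign under every setting in which they were measured, apart from LY6G6D in Cy3. Among named genes, the sign turned in Cy3 for HOXA7 (0.22), ID1 (0.73) and ID3 (0.44), in the mean of both dyes for ID1 (0.23) and ID3 (0.11), and without the Cdx1 array at 12 h for ID2 (-0.0081, and 0.53 without that at 24 h). Against the Cdx1 array at 24 h alone, a choice made after the data were seen, the median of the highest run of neighbours (AFP to RCHY1) was 0.09 in place of 0.35. The cause was not tested. No paired analysis was possible because the labels give no replicate numbers shared by both clones. Dim probes limit what a difference can show, since the offset shrinks it.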
